A study of Homo sapiens with 15 samples.

Results

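The RNA of 10 transcription factors of the ETS family (ETS1, ETS2, ETV1, ETV4, ETV5, ETV6, ELK1, ELK3, ELF1 and ELF4) was followed in MDA-MB-231 cells depleted of YAP, TAZ or both. The members were taken by gene symbol, and all 10 listed symbols were found among the 18858 genes of the deposited count table. MDA-MB-231 is an established human breast cancer cell line, labelled wild type in every group. The cells were left untransfected (Control) or received siRNA, which was a pool without a human target (siControl), one directed at YAP1 (siYAP), one directed at WWTR1, which encodes TAZ (siTAZ), or the YAP1 and WWTR1 pools together (siYAP+TAZ). RNA was extracted after 48 h of knockdown and a further 5 to 6 h of culture on gelatin. Each group held 3 libraries. Control comprised libraries 16, 21 and 26, siControl 17, 22 and 27, and siYAP 18, 23 and 28. Libraries 19, 24 and 29 were siTAZ, and 20, 25 and 30 were siYAP+TAZ. Each pool was used at the same concentration, so the co-knockdown cells received more siRNA in total, and this difference cannot be told apart from the co-knockdown. The libraries came from independent sets of experiments, but which libraries form a set is not given, and p-values measure only the spread between these libraries.

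ETS factors share a winged helix-turn-helix domain that binds DNA around a GGAA core. Many of them are nuclear end points of the RAS-ERK pathway: ERK phosphorylates ETS1, ETS2 and the ternary complex factors ELK1 and ELK3, and raises the transcription of the PEA3 group (ETV1, ETV4 and ETV5). ETV6 acts as a transcriptional repressor. ETS1 is known in invasive breast cancer cells as an activator of protease genes, and YAP and TAZ are co-activators of the Hippo pathway that reach DNA mainly through TEAD factors.

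Promoters are shown for ETV1, ETV6 and ETS2, members that passed the test in the co-knockdown and whose RefSeq start site equals the start of the gene in the annotation. Each stretch holds 250 bases before and 50 bases after the start site in GRCh38.p14. Capitals mark the ETS core, GGAA or its reverse complement TTCC.
ETV1 (chr7:13991376-13991675, minus strand): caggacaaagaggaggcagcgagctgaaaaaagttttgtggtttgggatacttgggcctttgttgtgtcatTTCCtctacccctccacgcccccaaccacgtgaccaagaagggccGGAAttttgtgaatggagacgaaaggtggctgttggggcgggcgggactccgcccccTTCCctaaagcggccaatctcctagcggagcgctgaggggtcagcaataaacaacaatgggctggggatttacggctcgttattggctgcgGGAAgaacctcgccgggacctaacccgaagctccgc
ETV6 (chr12:11649424-11649723, plus strand): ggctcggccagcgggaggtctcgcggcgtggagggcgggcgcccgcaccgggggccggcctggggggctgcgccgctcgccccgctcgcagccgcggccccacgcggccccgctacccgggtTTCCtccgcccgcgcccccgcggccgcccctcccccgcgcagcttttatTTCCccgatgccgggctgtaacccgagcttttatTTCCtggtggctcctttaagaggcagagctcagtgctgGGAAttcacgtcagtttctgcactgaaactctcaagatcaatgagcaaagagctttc
ETS2 (chr21:38804933-38805232, plus strand): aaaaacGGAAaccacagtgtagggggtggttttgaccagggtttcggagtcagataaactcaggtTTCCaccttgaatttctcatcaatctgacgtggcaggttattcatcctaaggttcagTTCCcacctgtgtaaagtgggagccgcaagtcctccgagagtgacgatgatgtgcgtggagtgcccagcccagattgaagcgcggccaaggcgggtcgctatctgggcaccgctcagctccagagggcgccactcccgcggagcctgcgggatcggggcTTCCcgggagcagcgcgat
Each of these promoters held 4 cores, and 46.0% of the 35116 RefSeq promoters of this length held at least 4. RefSeq promoters were found for 7 of the 10 members, in 18 windows, since a gene can have several start sites, and ETS1, ETV4 and ETV5 had no entry. The longer letters CCGGAAGT, a high-affinity ETS site that contains the core, were in 0 of the 18 windows on either strand and in 4.14% of all promoters. The TEAD letters GGAATG, which overlap the core, were likewise in 0 windows against 14.0% of all promoters. The AP-1 letters TGANTCA were in 1 window, that of ELF4, 121 bases before the start, against 7.71% of all promoters. A missing match says only that these letters are not in the window.

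Total counts on genes ranged from 18696737 to 30107312 per library, with a median of 22902846. All 10 members passed both filters on low counts that were tried, a minimum of 10 reads in 3 or more libraries and the filterByExpr function of edgeR. Of the markers of the line, VIM (21578 to 38756 counts), CD44 (17514 to 25825), CAV1 (10709 to 19384) and AXL (22131 to 46841) were high in all 15 libraries. EPCAM was at 209 to 389, PGR at 0 to 7 and the blood cell gene PTPRC at 0 to 6, and CDH1, ESR1, CD3E and HBB were not analysed here. YAP1 RNA was at 23.4%, 64.0% and 17.6% of the siControl mean in siYAP libraries 18, 23 and 28, and at 51.8%, 50.9% and 41.6% in siYAP+TAZ libraries 20, 25 and 30. WWTR1 RNA was at 45.8%, 14.1% and 28.8% in siTAZ libraries 19, 24 and 29, and at 62.7%, 62.1% and 71.0% in siYAP+TAZ. In siYAP+TAZ neither targeted gene passed the test against siControl, with an edgeR BH-adjusted p of 0.072 for YAP1 and 0.2 for WWTR1, while DESeq2 and limma-voom each called 1 of the 2. YAP1 in siYAP had a log2 fold change of -1.51 and was not called by edgeR (edgeR BH-adjusted p = 0.099), whereas DESeq2 and limma-voom each called 1 of the 2 targets there. WWTR1 in siTAZ was called by edgeR (-1.74, edgeR BH-adjusted p = 0.019). Of 9 reference targets of YAP and TAZ, all 9 were called lower in siYAP+TAZ against siControl (8.39% of all genes were), with a median log2 fold change of -0.70, whereas edgeR called 2 in siYAP (0.933% of all genes) and 1 in siTAZ (2.03%). DESeq2 called 5 and 4 there and limma-voom 2 and 3, the medians were -0.48 and -0.28, and 8 and 5 of the 9 did not overlap siControl (19.5% and 20.9% of all genes).

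Co-knockdown of YAP and TAZ moved ETS factors in both directions. Against siControl, 6 of the 10 members passed an adjusted p of 0.05 in edgeR's quasi-likelihood test, adjusted over all genes by Benjamini-Hochberg, where 18.4% of all genes and 26.7% of the genes averaging 100 or more normalized counts did. The members, like the gene lists below, were chosen with earlier results of these data known. A count above such a share is therefore no evidence of an excess. ETV1, ETV6, ELF1 and ETV5 rose (9.97% of all genes were called higher) and ETS1 and ETS2 fell (8.39% were called lower). ETV1 was the member that also passed an absolute log2 fold change of 1, as 3.46% of all genes did. In 8 of the 10 the siYAP+TAZ libraries did not overlap the siControl libraries, against 36.4% of all genes. The median log2 fold change of the 10 was 0.17, and that of all genes -0.005. In siYAP alone 1 member passed (0.933% of all genes), and in siTAZ alone 2 (2.03%). These backgrounds depend on single libraries: with 1 library left out at a time, 27 to 137 genes were called in siYAP, against 176 with all libraries, and 68 (without siTAZ 24) to 901 (without siTAZ 19) in siTAZ, against 383. The 3 comparisons share the siControl libraries, so their agreement is no independent evidence.

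**Figure D1:**
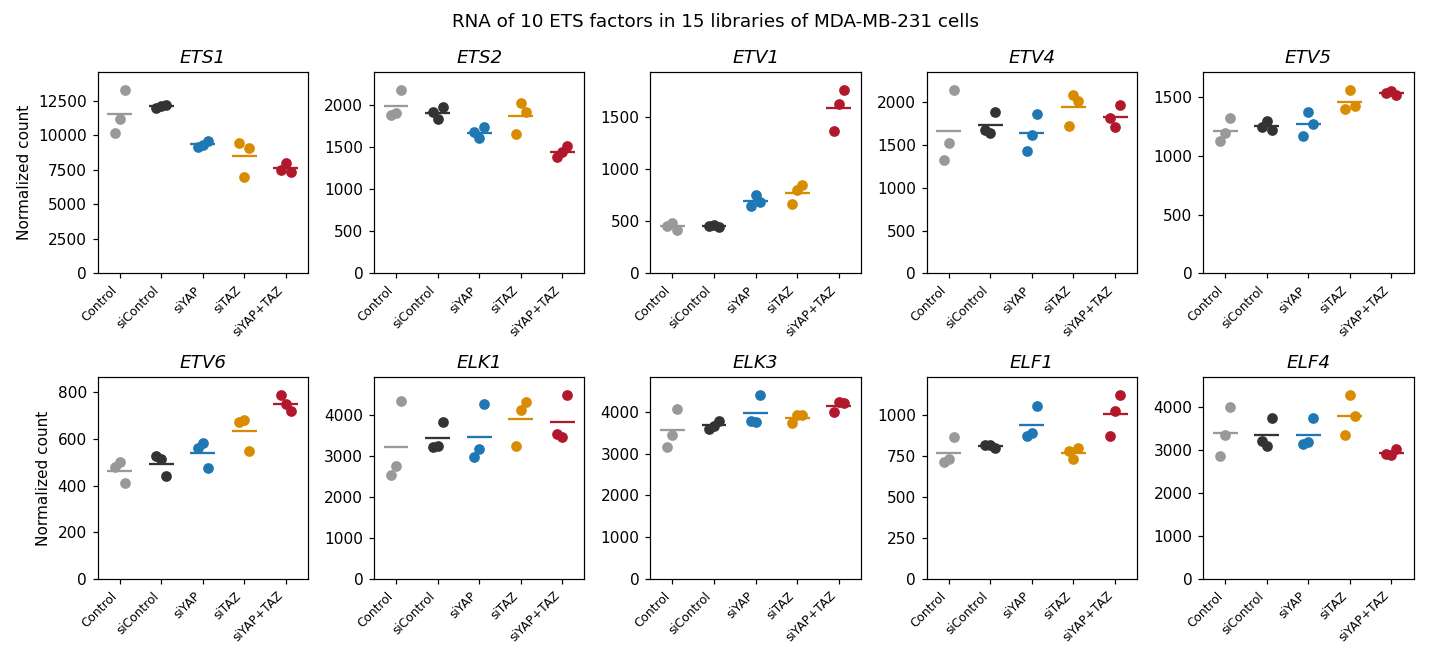
Normalized counts (y axis, linear from 0) of the 10 ETS factors in each library of the 5 groups (x axis). Points are libraries and bars are group means (n = 3). ETS1 lay at 7330 to 7990 in siYAP+TAZ and at 11948 to 12226 in siControl, whereas ETV1 lay at 1367 to 1761 and at 448 to 466.

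ETS1, the founding member of the family, occupies chromosome 11, bases 128458761 to 128587558, minus strand (GRCh38). Normalized counts, which are counts scaled to the TMM-adjusted size of the mean library, reached 11948, 12103 and 12226 in siControl libraries 17, 22 and 27. They were 9169, 9316 and 9589 in siYAP 18, 23 and 28, and 9439, 7019 and 9071 in siTAZ 19, 24 and 29. They were 7484, 7990 and 7330 in siYAP+TAZ 20, 25 and 30, and 10172, 11174 and 13274 in Control 16, 21 and 26. Every knockdown library thus lay below every siControl and Control library. Both single knockdowns overlapped each other, and siTAZ 24 lay below all siYAP+TAZ libraries. That library also had the lowest WWTR1 RNA of its group, and a link between these values was not tested.

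In siYAP+TAZ, ETS1 fell to 62.9% of the siControl mean, at a log2 fold change of -0.67 (SE 0.101, 95% interval -0.88 to -0.46, edgeR BH-adjusted p = 0.00015). In siTAZ it fell by 0.51 on the log2 scale (SE 0.1, edgeR BH-adjusted p = 0.012). The siTAZ call rested on single libraries: the log2 fold change was -0.39 without siTAZ 24 (edgeR BH-adjusted p = 0.067) and -0.51 without siControl 22 (edgeR BH-adjusted p = 0.054). In siYAP the log2 fold change was -0.37 (SE 0.1, edgeR BH-adjusted p = 0.091), not past the threshold, although its libraries did not overlap siControl. It was called there with DESeq2, with only the groups compared in the fit and with libraries of consecutive numbers as a replicate block. In a bulk library, less ETS1 RNA per cell and fewer cells with ETS1 RNA cannot be told apart, and the same holds for every member.

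ETS1 did not pass the test between any pair of knockdowns in the main fit, which held all libraries and no block. Its log2 fold change was -0.30 in siYAP+TAZ against siYAP (95% interval -0.51 to -0.09, edgeR BH-adjusted p = 0.095). This became a call with only the groups compared in the fit (edgeR BH-adjusted p = 0.026) and with the replicate block (edgeR BH-adjusted p = 0.041). Against siTAZ the log2 fold change was -0.16 (95% interval -0.37 to 0.05, edgeR BH-adjusted p = 0.41). For siYAP against siTAZ it was 0.14 (95% interval -0.07 to 0.35, edgeR BH-adjusted p = 0.6). The single log2 changes added up to -0.88, against -0.67 in the co-knockdown. This departure from additivity of 0.21 had a 95% interval of -0.09 to 0.50 and did not pass the test (edgeR BH-adjusted p = 0.92). WWTR1 RNA was less depleted in siYAP+TAZ than in siTAZ, at 62.1% to 71.0% against 14.1% to 45.8% of the siControl mean. YAP1 RNA was at 41.6% to 51.8% in siYAP+TAZ, within the 17.6% to 64.0% of siYAP. The co-knockdown is thus not both single depletions added, which limits every comparison of it with a single knockdown.

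ETS2, the closest paralog of ETS1, occupies chromosome 21, bases 38805183 to 38824955, plus strand and shared no stretch of 50 bases with another gene. It had 1911, 1836 and 1975 normalized counts in siControl, 1677, 1602 and 1738 in siYAP, 1659, 2027 and 1915 in siTAZ and 1377, 1445 and 1516 in siYAP+TAZ. Control lay at 1875, 1906 and 2175. The siYAP+TAZ libraries lay below all 12 others, and the siTAZ libraries spanned the siControl range. ETS2 fell in siYAP+TAZ at a log2 fold change of -0.40 (SE 0.0814, edgeR BH-adjusted p = 0.002). It was -0.19 in siYAP (edgeR BH-adjusted p = 0.34), whose libraries all lay below siControl, and -0.032 in siTAZ (edgeR BH-adjusted p = 0.9). The co-knockdown was lower than siTAZ by a log2 fold change of -0.37 (SE 0.0816, edgeR BH-adjusted p = 0.012), a call lost without siTAZ 24 or 29 or without siYAP+TAZ 20 or 25, where the value ranged from -0.45 to -0.30 over the left-out libraries. Against siYAP it was -0.21 (edgeR BH-adjusted p = 0.16).

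**Figure D2:**
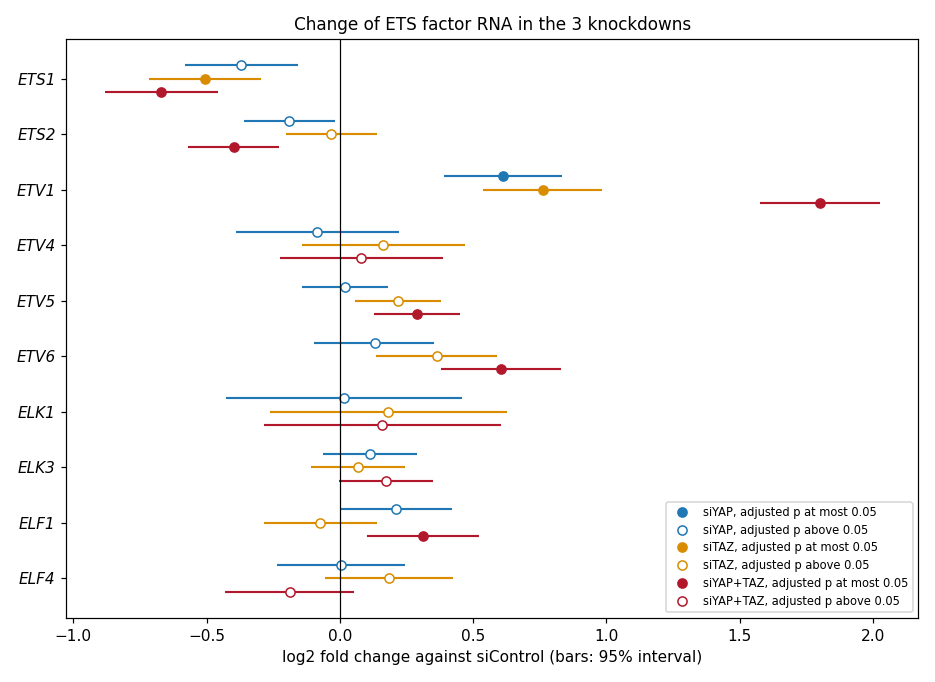
Log2 fold change against siControl (x axis) of each ETS factor (y axis) in siYAP, siTAZ and siYAP+TAZ, with 95% intervals from the fit over 15 libraries. Filled points have an edgeR BH-adjusted p of at most 0.05. ETV1 in siYAP+TAZ, at 1.80, lies apart from all other values, and ETS1 is below 0 in all 3 knockdowns.

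ETV1 belongs to the PEA3 group and is best known as an oncogene fused in prostate cancer and as a survival factor in gastrointestinal stromal tumours. It occupies chromosome 7, bases 13891229 to 13991425, minus strand, and none of its 50-base stretches was shared with another gene. Its normalized counts lay at 452, 466 and 448 in siControl and at 458, 483 and 413 in Control. They were 648, 758 and 683 in siYAP and 670, 802 and 850 in siTAZ. In siYAP+TAZ libraries 20, 25 and 30 they were 1367, 1633 and 1761. The co-knockdown libraries lay above all single-knockdown libraries, and these above all libraries of both control groups. The single knockdowns overlapped each other.

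The mean of ETV1 in siYAP+TAZ was 349% of that in siControl, at a log2 fold change of 1.80 (SE 0.107, 95% interval 1.58 to 2.03, edgeR BH-adjusted p = 1.3e-08). In siYAP it rose by 0.61 on the log2 scale (SE 0.106, edgeR BH-adjusted p = 0.0084) and in siTAZ by 0.76 (SE 0.107, edgeR BH-adjusted p = 0.0026). Without siControl 17 the siYAP value was 0.62 and its edgeR BH-adjusted p 0.056. Library siYAP 23, with the most YAP1 RNA left in its group, had the highest ETV1 value of the group. ETV1 was higher in siYAP+TAZ than in siYAP (log2 fold change 1.19, SE 0.104, edgeR BH-adjusted p = 7e-06) and than in siTAZ (1.04, SE 0.104, edgeR BH-adjusted p = 2.1e-05). Between siYAP and siTAZ the log2 fold change was -0.15 (95% interval -0.37 to 0.07, edgeR BH-adjusted p = 0.58).

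The single log2 changes of ETV1 summed to 1.38, against 1.80 in the co-knockdown, in which WWTR1 RNA was less depleted than in siTAZ. The excess of 0.43 (95% interval 0.12 to 0.74) had an unadjusted p of 0.0096 in edgeR but did not pass after adjustment over all genes (edgeR BH-adjusted p = 0.68). Across the members, 0 of 10 passed this interaction test (0.0106% of all genes did) in edgeR, DESeq2 or limma-voom. At an unadjusted p under 0.05 in edgeR there were 2, ETV1 and ELF4 (5.85% of all genes).

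ETV4 (chromosome 17, 43527844 to 43579620, minus strand) and ETV5 (chromosome 3, 186046314 to 186110318, minus strand) are the other PEA3 factors, which the ubiquitin ligase COP1 marks for degradation together with ETV1. ETV5 had 1250, 1300 and 1220 normalized counts in siControl, 1174, 1374 and 1271 in siYAP, 1404, 1560 and 1423 in siTAZ and 1537, 1554 and 1519 in siYAP+TAZ. Control lay at 1128, 1196 and 1325. The siYAP+TAZ and siTAZ libraries all lay above siControl, and siYAP overlapped it. ETV5 rose in siYAP+TAZ by 0.29 on the log2 scale (SE 0.0771, edgeR BH-adjusted p = 0.012). It was at 0.22 in siTAZ (edgeR BH-adjusted p = 0.15) and at 0.018 in siYAP (edgeR BH-adjusted p = 0.97). The difference between siYAP+TAZ and siYAP was 0.27 (SE 0.077, edgeR BH-adjusted p = 0.047). That call was lost without siYAP 18 or 28 or without any 1 of the siYAP+TAZ libraries, where values ranged from 0.22 to 0.32 over all left-out libraries, and also without robust estimation and with only the groups compared in the fit. An overlap with DGKG on the same strand covers 2.84% of the exonic bases of ETV5.

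ETV4 had 1668, 1643 and 1881 normalized counts in siControl and 1810, 1712 and 1964 in siYAP+TAZ. The other groups lay at 1425, 1613 and 1859 (siYAP), 1723, 2081 and 2010 (siTAZ) and 1325, 1521 and 2137 (Control). These ranges overlapped between all groups. The log2 fold change in siYAP+TAZ was 0.08 (95% interval -0.23 to 0.39, edgeR BH-adjusted p = 0.76). ETV4 was not called in any comparison given here. The 3 PEA3 genes therefore showed different values in the same libraries, at 1.80, 0.29 and 0.08 on the log2 scale for ETV1, ETV5 and ETV4.

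ETV6, a repressor that is rearranged in leukaemias and in secretory breast carcinoma, occupies chromosome 12, bases 11649674 to 11895377, plus strand. It had 525, 514 and 442 normalized counts in siControl, 563, 581 and 475 in siYAP, 674, 681 and 549 in siTAZ, and 787, 750 and 720 in siYAP+TAZ. Control lay at 478, 500 and 413. The siYAP+TAZ libraries lay above all others, the siTAZ libraries lay above siControl, and siYAP overlapped siControl. ETV6 rose in siYAP+TAZ at a log2 fold change of 0.61 (SE 0.107, 95% interval 0.38 to 0.83, edgeR BH-adjusted p = 0.00062). In siTAZ it was 0.36 (edgeR BH-adjusted p = 0.087) and in siYAP 0.13 (edgeR BH-adjusted p = 0.71), neither past the threshold. The siTAZ value was called by DESeq2 (DESeq2 adjusted p = 0.047) and, against Control in place of siControl, by edgeR (0.45, edgeR BH-adjusted p = 0.028). With the replicate block it was called against siControl too (edgeR BH-adjusted p = 0.0021). The co-knockdown exceeded siYAP by 0.48 (SE 0.107, edgeR BH-adjusted p = 0.014). The call was lost without siYAP 28 (0.40, edgeR BH-adjusted p = 0.06) or siYAP+TAZ 20 (0.44, edgeR BH-adjusted p = 0.059). Against siTAZ the difference was 0.24 (95% interval 0.02 to 0.47, edgeR BH-adjusted p = 0.22).

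ELK1 (chromosome X, 47635521 to 47650604, minus strand) and ELK3 (chromosome 12, 96194375 to 96269824, plus strand) are ternary complex factors, which bind DNA together with SRF at serum response elements. ELK3 represses these elements until ERK phosphorylates it. ELK1 had 3218, 3258 and 3823 normalized counts in siControl, 2973, 3176 and 4263 in siYAP, 3254, 4122 and 4311 in siTAZ, and 3549, 3460 and 4483 in siYAP+TAZ. Control lay at 2543, 2758 and 4343, so that each group overlapped each other group. ELK1 had the widest interval of the members in siYAP+TAZ, -0.29 to 0.60 around a log2 fold change of 0.16 (edgeR BH-adjusted p = 0.66). A change as large as that of ETV5 lies within this interval. In all 5 groups the highest ELK1 value was that of the library numbered 26 to 30, and in all 5 groups this library had the lowest ETV6 value. For ETS2, ETV4, ELK3, ELF1 and ELF4 this library was the highest in 4 of the 5 groups.

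ELK3 had 3607, 3674 and 3778 normalized counts in siControl and 4013, 4247 and 4218 in siYAP+TAZ. It had 3788, 3777 and 4404 in siYAP, 3735, 3925 and 3945 in siTAZ and 3164, 3449 and 4076 in Control. The siYAP+TAZ libraries lay above siControl without overlap, but the log2 fold change of 0.17 did not pass the test (SE 0.084, 95% interval -0.002 to 0.35, edgeR BH-adjusted p = 0.17). It passed when counts were scaled by library size only (0.22, edgeR BH-adjusted p = 0.046) and with the replicate block (edgeR BH-adjusted p = 0.036). An unnamed gene on the opposite strand covers 4.5% of the exonic bases of ELK3, 2.25% of those of ETS2 are covered likewise, and DHX8 covers 1.93% of those of ETV4. No source states whether counting was strand-specific.

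ELF1 (chromosome 13, 40931924 to 41061440, minus strand) and ELF4 (chromosome X, 130063955 to 130110716, minus strand) belong to a subgroup known mainly from lymphoid cells. ELF1 had 816, 820 and 800 normalized counts in siControl, 876, 893 and 1055 in siYAP, 782, 731 and 803 in siTAZ, and 873, 1025 and 1122 in siYAP+TAZ. Control lay at 713, 731 and 866. Both groups that received the YAP1 pool lay above siControl, whereas siTAZ reached from below into its range. ELF1 rose in siYAP+TAZ by 0.31 on the log2 scale (SE 0.0999, edgeR BH-adjusted p = 0.036). That call was lost without any 1 of the siControl libraries and without siYAP+TAZ 25 or 30, with values from 0.23 to 0.40 over the left-out libraries and an edgeR BH-adjusted p of up to 0.15. The log2 fold change was 0.21 in siYAP (edgeR BH-adjusted p = 0.41) and -0.073 in siTAZ (edgeR BH-adjusted p = 0.79). ELF1 was higher in siYAP+TAZ than in siTAZ by 0.38 (SE 0.1, edgeR BH-adjusted p = 0.032), a call lost without any 1 of the siTAZ libraries and without siYAP+TAZ 25 or 30 (0.31 to 0.48 over the left-out libraries), and also with only the groups compared in the fit.

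ELF4 had 3213, 3086 and 3754 normalized counts in siControl, 3141, 3183 and 3758 in siYAP, 3344, 4278 and 3806 in siTAZ, and 2906, 2876 and 3031 in siYAP+TAZ. Control lay at 2870, 3353 and 3997. The siYAP+TAZ libraries lay below all siControl, siYAP and siTAZ libraries. The log2 fold change was -0.19 against siControl (SE 0.115, edgeR BH-adjusted p = 0.29) and -0.37 against siTAZ (SE 0.115, edgeR BH-adjusted p = 0.067), neither past the threshold. The value against siTAZ was called without siTAZ 19, with only the groups compared in the fit and with the replicate block (edgeR BH-adjusted p = 0.0019).

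The direct comparisons of knockdowns gave the following counts, limited by the weaker depletion of WWTR1 RNA in siYAP+TAZ than in siTAZ. In siYAP+TAZ against siYAP, 3 members were called, ETV1, ETV6 and ETV5, all higher (5.13% of all genes were called, and 3.43% of all genes as higher). In siYAP+TAZ against siTAZ, ETV1 and ELF1 were called higher and ETS2 lower, 3 in all (5.44%). With 1 library left out at a time, the calls over all genes were 399 to 678 against siYAP (968 with all libraries, fewest without siYAP 18) and 465 to 949 against siTAZ (1025, fewest without siYAP+TAZ 25). They were 0 (without siYAP 18 or 28) to 417 (without siTAZ 19) between siYAP and siTAZ, where all libraries gave 121. Between siYAP and siTAZ 0 members were called by edgeR, DESeq2 or limma-voom (0.642% of all genes by edgeR), and ELF1, ETV5 and ETV6 had an unadjusted edgeR p under 0.05, as 13.7% of all genes did. For transfection itself, siControl against Control, 0 members were called by any of these tools and 0 had an unadjusted edgeR p under 0.05 (2.11% of all genes did). Their log2 fold changes there lay between -0.057 and 0.096.

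Against the untransfected Control in place of siControl, ETS1 and ETS2 were lower and ETV1, ETV5, ETV6 and ELF1 higher in siYAP+TAZ, with log2 fold changes of -0.60, -0.46, 1.82, 0.34, 0.70 and 0.39 (edgeR BH-adjusted p between 1.3e-08 and 0.01), and 19.4% of all genes were called. When libraries were matched by their numbers (16 to 20, 21 to 25 and 26 to 30), the log2 ratio of the siYAP+TAZ library to the siControl library was -0.68, -0.60 and -0.74 for ETS1. For ETV1 it was 1.60, 1.81 and 1.97. It was 0.59, 0.55 and 0.71 for ETV6, -0.47, -0.35 and -0.38 for ETS2, and 0.30, 0.26 and 0.32 for ETV5. The ratio of ELF1 varied more, at 0.10, 0.32 and 0.49. These are only numbers on the libraries, and whether they mark sets of experiments is not stated.

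Levels of different genes were compared only per kilobase of merged exon. This length joins all annotated exons, whichever isoforms are expressed, so the order, shares and ratios below are not counts of transcripts. In siControl the level of the 10 factors ran from ETS1 (1690 ± 19.6 normalized counts per kilobase, SD, n = 3) through ELK1 (1010 ± 99.5), ELK3 (794 ± 18.5), ELF4 (640 ± 67.7), ETV4 (492 ± 37.2), ETS2 (383 ± 14.0), ETV5 (218 ± 7.02), ELF1 (183 ± 2.38) and ETV6 (68.3 ± 6.24) to ETV1 (47.5 ± 0.983). No neighbours in this order overlapped. In siYAP+TAZ the levels of ELK1 (1130 ± 167) and ETS1 (1060 ± 48.6) overlapped at the top, and ELF4 overlapped ETV4. ETV1 (165 ± 21.0) lay above ETV6 (104 ± 4.67), the reverse of their order in siControl.

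The share of ETS1 in the summed level of the 10 factors was 30.6% in siControl and 30.3% in Control. It was 25.2% in siYAP, 22.0% in siTAZ and 20.4% in siYAP+TAZ. The share of ETV1 was 0.86% in siControl and 3.16% in siYAP+TAZ. Per kilobase, ETS1 was at 34.8 to 36.6 times the level of ETV1 in the siControl libraries and at 29.8 to 43.1 times in Control. The ratio was 16.5 to 19.0 in siYAP, 11.7 to 18.9 in siTAZ and 5.58 to 7.35 in siYAP+TAZ, so that the co-knockdown libraries had the lowest ratios and both single knockdowns lay between.

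**Figure D3:**
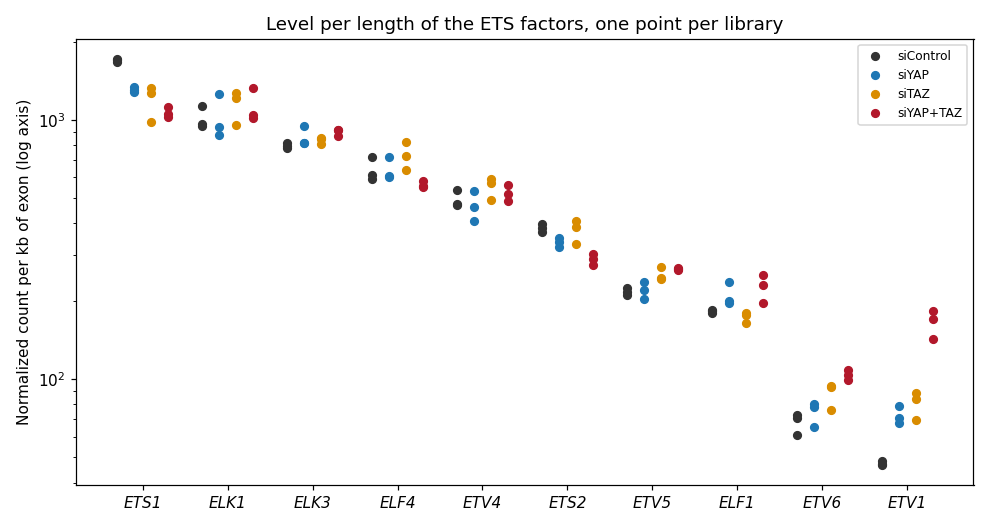
Level of each ETS factor (x axis, in the order of the siControl means) as normalized counts per kilobase of merged exon (y axis, log scale), with 1 point per library of siControl, siYAP, siTAZ and siYAP+TAZ. ETS1 comes down to the level of ELK1 in siYAP+TAZ, at 1060 and 1130 on average, and ETV1 goes from 47.5 to 165.

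Other genes of the family were taken from a list of 18, of which 12 were measured, and ERG, FEV, ETV3L, ELF5, SPI1 and SPIC were not analysed here. In siYAP+TAZ against siControl, 0 of the 12 were called by edgeR, 5 had an unadjusted edgeR p under 0.05 (30.3% of all genes did), and DESeq2 called 2 and limma-voom 1. The median log2 fold change was 0.25. Values beyond 1.5 in either direction were those of 3 genes, picked out after their values were seen. SPDEF, an epithelial ETS factor, had 201 to 457 normalized counts in siControl and 497 to 1752 in siYAP+TAZ (log2 fold change 1.80, SE 0.57, edgeR BH-adjusted p = 0.052). ETV7, the close relative of ETV6, had 11.1 to 29.0 and 33.3 to 120 (1.83, SE 0.622, edgeR BH-adjusted p = 0.059). ELF3, another epithelial factor, had raw counts of 1 to 7 and 4 to 20 (1.94, SE 0.725, edgeR BH-adjusted p = 0.072). FLI1 was at 0 counts in at least 1 siTAZ library and reached at most 11 counts in any library. SPIB was at 0 counts in Control 26 and siTAZ 29 and reached at most 8.

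The RAS-ERK cascade itself, a list of 10 kinases and GTPases, had 1 gene called in siYAP+TAZ against siControl (2 each by DESeq2 and limma-voom), against 18.4% of all genes, and a median log2 fold change of 0.03. MAPK3, which encodes ERK1, rose by 0.41 on the log2 scale (SE 0.11, edgeR BH-adjusted p = 0.012), from 959, 961 and 1097 normalized counts to 1428, 1231 and 1360. Either single knockdown had 0 called genes of the cascade in edgeR, DESeq2 or limma-voom, and 1 at an unadjusted edgeR p under 0.05 (11.9% of all genes in siYAP and 16% in siTAZ).

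Of 16 genes that ERK signalling induces, many of which feed back on the pathway, 8 rose and 1 fell in siYAP+TAZ, where 9.97% of all genes were called higher and 8.39% lower, and their median log2 fold change was 0.41. This list was chosen with earlier results of these data known, so its count is no evidence of an excess over these shares. SPRED and Sprouty proteins restrain the pathway upstream of ERK, and the 4 genes with the smallest p were of these families. SPRED1 had 1074, 1062 and 952 normalized counts in siControl and 1567, 1683 and 1480 in siYAP+TAZ (log2 fold change 0.61, SE 0.0765, edgeR BH-adjusted p = 2.4e-05). SPRED3 had 569, 617 and 539, and 1114, 1166 and 966 (0.91, SE 0.122, edgeR BH-adjusted p = 4.8e-05). SPRY4 rose by 0.54 (edgeR BH-adjusted p = 0.00031) and SPRY2 by 0.40 (edgeR BH-adjusted p = 0.0023). In each of these 4 genes no siYAP+TAZ library overlapped siControl, but they were picked by their p in this comparison. In the whole list 13 of the 16 did not overlap, against 36.4% of all genes.

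The 1 gene of this list called lower was CCND1, cyclin D1 (log2 fold change -0.25, SE 0.0786, edgeR BH-adjusted p = 0.035), named after its value was seen. EPHA2, a receptor tyrosine kinase, had a lower value of -0.32 (edgeR BH-adjusted p = 0.053) and FOSL1, an AP-1 subunit, one of -0.21 (edgeR BH-adjusted p = 0.25), neither past the threshold. The siYAP+TAZ libraries of both lay below siControl without overlap, and both are likewise given after their values were seen. DUSP6, the phosphatase that inactivates ERK, had 1751 to 2646 normalized counts in siControl and 3162 to 3684 in siYAP+TAZ, a log2 fold change of 0.56 that did not pass (SE 0.247, edgeR BH-adjusted p = 0.15) and is given after its values were seen. In siYAP 1 of the 16 was called (0.933% of all genes), SPRED3 (0.56, SE 0.121, edgeR BH-adjusted p = 0.032), and in siTAZ 0 were called by edgeR, DESeq2 or limma-voom, with 1 at an unadjusted edgeR p under 0.05 (16% of all genes). SPRED3 was at 634, 410 and 509 normalized counts in siTAZ and higher in siYAP than in siTAZ (log2 fold change 0.71, SE 0.122, edgeR BH-adjusted p = 0.019). Against siYAP, 3 of the 16 were called in siYAP+TAZ, all higher (3.43% of all genes were called higher), and DESeq2 and limma-voom called 5 each. Against siTAZ 4 were called by edgeR, all higher (3.06% of all genes were called higher), and DESeq2 and limma-voom called 4 each. None of the 16 was called in the interaction by edgeR, DESeq2 or limma-voom, although 4 had an unadjusted edgeR p under 0.05 (5.85% of all genes).

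**Figure D4:**
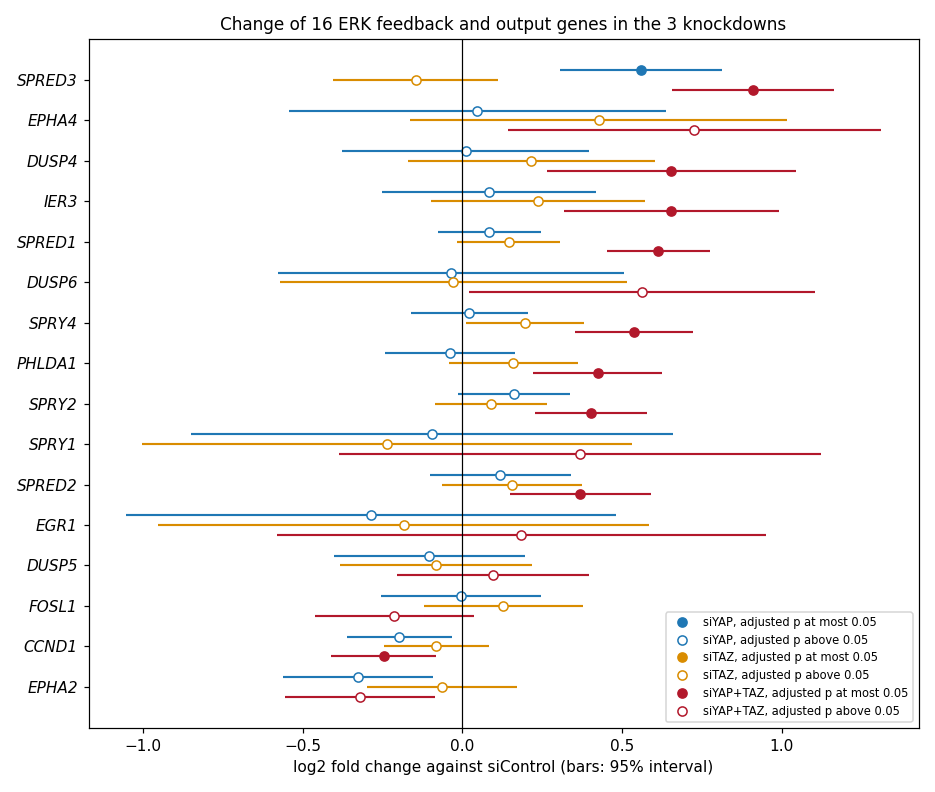
Log2 fold change against siControl (x axis) of 16 genes induced by ERK signalling (y axis, ordered by the siYAP+TAZ value) in siYAP, siTAZ and siYAP+TAZ, with 95% intervals. Filled points have an edgeR BH-adjusted p of at most 0.05: 8 genes higher and 1 lower in siYAP+TAZ, with SPRED3 alone in siYAP and 0 in siTAZ.

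Among 7 partners of ETS factors and regulators of their turnover, 1 was called in siYAP+TAZ against siControl, no larger a share than the 18.4% of all genes, and the median log2 fold change was 0.09. EP300, an acetyltransferase that ETS1 recruits, rose by 0.23 on the log2 scale (SE 0.0684, edgeR BH-adjusted p = 0.022). COP1, the ligase of the PEA3 factors, had a value of -0.05 (edgeR BH-adjusted p = 0.76) and SRF, the partner of ELK1 and ELK3, one of -0.20 (edgeR BH-adjusted p = 0.077). Both are given after their values were seen. In siYAP+TAZ against siYAP, 2 of the 7 were called by edgeR, both higher (3.43% of all genes were called higher), and DESeq2 and limma-voom called 3 each. In siYAP against siTAZ, edgeR called 1, lower (0.472% of all genes were called lower), DESeq2 2 and limma-voom 1.

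Of 10 genes described elsewhere as ETS targets, 6 were measured and FLT1, TEK, ANGPT2 and CDH5 were not analysed here. In siYAP+TAZ, 1 of the 6 was called by edgeR, near the 18.4% of all genes, and 2 each by DESeq2 and limma-voom. The gene called by edgeR was MMP9, a gelatinase, at raw counts of 3, 0 and 1 in siControl and 3, 6 and 25 in siYAP+TAZ. It had 9, 10 and 24 in siYAP, all above siControl but not called (edgeR BH-adjusted p = 0.082), and 1 to 2 in siTAZ. These counts are too low for a fold change, and siControl and siYAP+TAZ share the value of 3. PLAU, which encodes urokinase, had 7008, 6924 and 6976 normalized counts in siControl, 8777, 13570 and 12460 in siTAZ and 8473, 8881 and 12390 in siYAP+TAZ. It rose in siTAZ by 0.73 (SE 0.168, edgeR BH-adjusted p = 0.042) and was at 0.51 in siYAP+TAZ (edgeR BH-adjusted p = 0.051). In siYAP it had 7547 to 9879 normalized counts, all above siControl but not called. In siYAP+TAZ the log2 fold changes of the other measured targets were -0.28 for KDR, -0.21 for MET, 0.35 for MMP1 and 0.17 for MMP3 (edgeR BH-adjusted p between 0.2 and 0.92). KDR, a receptor of VEGF, was lower in siYAP+TAZ than in siYAP, at 133, 121 and 145 against 193, 200.3 and 184 normalized counts (log2 fold change -0.53, SE 0.142, edgeR BH-adjusted p = 0.036), the 1 target of the 6 called there (5.13% of all genes). PLAU and these 4 genes are given after their values were seen.

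Across the 15 libraries, the members differed in how they varied together, given as Pearson's r of log2 CPM over libraries that share groups and depth. ETS1 had r = -0.867 with ETV1 and -0.866 with ETV6, and ETV1 and ETV6 had r = 0.864. ETV4 and ELK1, neither called in any comparison given here, had r = 0.945. The library numbered 26 to 30 was the highest of its group in 5 of 5 groups for ELK1 and in 4 for ETV4. Whether this r follows the library numbers was not tested. Among 10639 genes averaging 100 or more normalized counts, those most like ETS1 were FKBP4 (r = 0.978), FP565260.1 (0.971), LARP1 (0.964), CUL4A (0.96) and MKRN2 (0.955). All 5 were lower in siYAP+TAZ, with log2 fold changes from -0.52 to -0.29. This is no separate result, since they were picked for following ETS1 over these same libraries. Those most like ETV5 were PDK2 (0.96), ZSWIM4 (0.952) and BAG3 (0.944).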

How the data were processed

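RNA was measured in 15 libraries of MDA-MB-231 cells, 3 in each of 5 groups, assigned by the sample titles. The authors purified polyadenylated RNA, sequenced single reads on a NovaSeq and ran the UTAP pipeline: trimming with cutadapt, alignment to GRCh38 with STAR 2.4.2a and an earlier GENCODE release, and counting per gene by STAR. The deposited counts, whole reads without normalization, were the input of every step. The normalized and rlog columns and the fold changes and p-values of the authors' own comparisons were not used.

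Counts were TMM-scaled. Tests were run in edgeR 4.0.16 under R 4.3.3 (quasi-likelihood, robust, 1 coefficient per group, all 15 libraries, no block), adjusted by Benjamini-Hochberg over all 18858 genes. A gene was called at an adjusted p of at most 0.05, given also with a log2 fold change of 1 or more in size. DESeq2 1.42.0 and limma-voom (limma 3.58.1) were alternatives, with other scalings and filters, Control as reference, a block and left-out libraries. The tests were first checked on simulated data. Replicates differed by more than sampling noise (chi-square per degree of freedom from 7.19 to 45.5), so each counted as 1. Log2 CPM used a prior count of 2. With 3 libraries a group, small changes are at the limit of what can be called.

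The members and gene lists were chosen with earlier results of these data known. All 10 members are named. From each list at most the 4 called genes with the smallest p in siYAP+TAZ against siControl are named, plus genes at 0 and, marked as such, genes picked after their values were seen. The 5 genes most correlated with ETS1 and the 3 with ETV5, and the siRNA targets, complete the rule. Coordinates and exon lengths are those of GENCODE 44, promoters those of RefSeq. At most 1.97% of the 50-base stretches of a member were shared with another gene.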

Additional observations from a re-analysis of the deposited data

How the results depend on the processing

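Of 1290 values (10 factors in 8 comparisons under each alternative), 1246 stayed on the same side of the threshold, 27 were no longer called, 17 became called, and 0 of the called values changed sign. ETS1, ETS2, ETV1, ETV5 and ETV6 in siYAP+TAZ against siControl were called under all 16 alternatives. In siYAP against siControl the number of members called went from 1 to 2 with DESeq2, with only the groups compared in the fit, and with a replicate block of libraries with consecutive numbers, ETS1 being the addition each time. With the replicate block, the calls went from 6 to 7 in siYAP+TAZ against siControl (ELK3 added), from 2 to 4 in siTAZ against siControl (ETV5 and ETV6), from 3 to 5 in siYAP+TAZ against siYAP (ETS1 and ETS2), from 3 to 5 against siTAZ (ETV6 and ELF4) and from 0 to 1 in siYAP against siTAZ (ELF1). Calls over all 18858 genes rose with the block too, from 3464 to 5389 in siYAP+TAZ against siControl, from 176 to 1151 in siYAP, from 383 to 1942 in siTAZ, from 968 to 2758 in siYAP+TAZ against siYAP, from 1025 to 2795 against siTAZ and from 121 to 1380 in siYAP against siTAZ. DESeq2 called 3 members in siTAZ against siControl, ETV6 being the addition. In 26 of 30 pairs of libraries of the same run of numbers, deviations from the group means had a correlation over 0.1 (lowest -0.0656, highest 0.725), and the 4 other pairs all held siTAZ 24. Because the sources do not tie the numbers to sets and a correlation over 0.1 in every pair was required, the runs were not taken as a pairing, although 11 of 15 libraries correlated best with their own run. The cause of the added calls was not tested. Leaving out 1 library at a time gave 5 to 6 calls in siYAP+TAZ against siControl, 0 to 1 in siYAP, 1 to 2 in siTAZ, 1 to 3 in siYAP+TAZ against siYAP and 1 to 3 against siTAZ, and 0 in siYAP against siTAZ, in siControl against Control and in the interaction. Low counts limit MMP9, MMP3, ELF3, FLI1 and SPIB, where single reads decide the value.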
